A study of Mus musculus with 12 samples.

Results

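The genes described here encode the proteins of the cytosolic ribosome. They were the protein-coding rows of the deposited FPKM files whose symbols begin with Rpl or Rps followed by a number, with an optional a or x, together with Rplp0, Rplp1 and Rplp2. Rpl3 was left out, as were kinases and rows named as pseudogenes. The rule used names and gene types only and found 74 of 52858 genes, of which 45 belong to the large subunit and 29 to the small subunit. RNA was measured by paired-end sequencing in 12 mouse hearts, 3 in each of 4 groups. C57BL/6J and Slit2-Tg hearts of male mice aged 3 to 5 months were perfused ex vivo with buffer for 80 min. C57-non-IR and Slit2-non-IR hearts had no ischemia, and C57-IR and Slit2-IR hearts had 20 min of ischemia followed by 40 min of reperfusion. Slit2-Tg mice carry a human Slit2 cDNA under the CMV promoter, which is not restricted to heart cells. The transgene was first injected into oocytes of a C57 by CBA cross, and C57BL/6J mice served as the background strain. All hearts, also those without ischemia, share the ex vivo perfusion.

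The cytosolic ribosome has a large subunit, which joins amino acids, and a small subunit, which reads the mRNA. Each subunit is built in the nucleolus from ribosomal RNA and proteins that are mostly needed in equal numbers, and ribosomal protein mRNAs are therefore usually present at similar, high levels. In mammals these mRNAs begin with a C and a run of pyrimidines at their capped 5′ end, called the terminal oligopyrimidine (TOP) motif, through which mTOR and LARP1 are known to control their translation. Such control changes how many ribosomes sit on an mRNA and is not measured by sequencing total RNA.

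RefSeq start regions (GRCm38.p6, 250 bases before to 50 bases after an annotated start) matched 55 of the 74 genes, with 65 windows. Of these windows, 13 (20%) started exactly with a C followed by at least 4 bases that were each C or T, against 2.51% of all 32851 windows. Within 10 bases of the annotated start, 36 member windows (55.4%) held such a run, against 30.7% of all windows. The following 30-base windows each begin 10 bases before the annotated start. They were picked among windows with the run at that start, for genes that come back below. Rps6 encodes the small-subunit protein phosphorylated by S6 kinases. Rpl15, Rps10 and Rpl35 were lowest, and Rpl14 was highest, of their group in every library numbered 1. The capitals mark the pyrimidine run.
Rps6, chr4:86857348-86857377, minus strand: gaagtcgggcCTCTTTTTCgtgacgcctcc
Rpl15, chr14:18270967-18270996, minus strand: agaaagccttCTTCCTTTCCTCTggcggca
Rps10, chr17:27635225-27635254, minus strand: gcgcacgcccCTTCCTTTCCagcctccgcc
Rpl35, chr2:39005112-39005141, minus strand: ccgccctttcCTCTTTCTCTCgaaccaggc
Rpl14, chr9:120571507-120571536, plus strand: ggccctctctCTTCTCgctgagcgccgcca
All 5 windows carry the run at the annotated start because they were picked for it, and they do not stand for all members. The windows of Rps28, Rps25, Rpl41 and Rplp0, which also come back below, held no such run within 10 bases of the start. In the 300-base windows, CCGGAA on either strand, the core of an ETS-factor site, was found in 47.7% of member windows and 14.9% of all windows. The shares were 29.2% and 8.93% for ATGGCG, 60% and 35.7% for GGGCGG, and 9.23% and 13.6% for TATAAA. Matches to ATGGCG and GGGCGG can share bases, and a match describes the sequence and shows no bound factor.

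The libraries held 16601154 to 24841291 reads on genes, and 19.7 to 26% of these came from mitochondrial genes. Cardiomyocyte markers were present in every library, with a summed level of 12562 to 19113 FPKM over 8 genes. Mouse Slit2 was at 0.18 to 0.282 FPKM in C57BL/6J hearts and 0.0847 to 0.813 FPKM in Slit2-Tg hearts, and since the transgene is human this does not check the labels. The 4 libraries numbered 1 stood apart. Their summed cardiomyocyte markers were 16668 to 19113 FPKM, against 12562 to 15130 FPKM in the other 8 libraries, and their summed leukocyte markers (8 genes) were 162 to 228 FPKM, against 237 to 354 FPKM. Fibroblast and mural cell markers were also lowest in the library numbered 1 in all 4 groups. Slit2-IR replicate 1 had a summed level of 1650 FPKM over 5 atrial markers, against at most 227 FPKM elsewhere. What the number stands for is not given in the sources used here, and the comparisons between groups below are given with all 12 libraries and, for their medians and counts, also without the libraries numbered 1. In bulk tissue, fewer cells of a type and less RNA per cell cannot be told apart.

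The 74 genes took 1.37 to 1.83% of the reads of a library, and all of them passed the filter on low values. The median level of a gene was 111 FPKM, against 2.99 FPKM for all tested genes. The highest means over the 12 libraries were those of Rplp1 (903 FPKM), which with Rplp0 and Rplp2 forms the stalk that recruits translation factors, Rpl36 (640 FPKM), Rps15 (475 FPKM), Rps29 (444 FPKM) and Rps2 (411 FPKM). Large-subunit genes had a median of 109 FPKM and small-subunit genes a median of 133 FPKM. The deposited gene lengths span all annotated exons and were a median of 2.37 times, and for Rps15a 9.8 times, the length of the principal transcript. Rescaled to that transcript, the median was 277 per kb and the middle 50% of genes lay between 188 and 397, a ratio of 2.11, against 2.71 for the deposited FPKM. On this scale Rplp1 (903), Rps29 (789), Rps2 (754), Rpl41 (739) and Rps14 (689) were highest. In the order of mean FPKM, the ranges over the 12 libraries overlapped in 71 of 73 pairs of neighbouring genes, all but those of Rpl21 with Rpl13a and of Rpl13a with Rpl24.

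**Figure D1:**
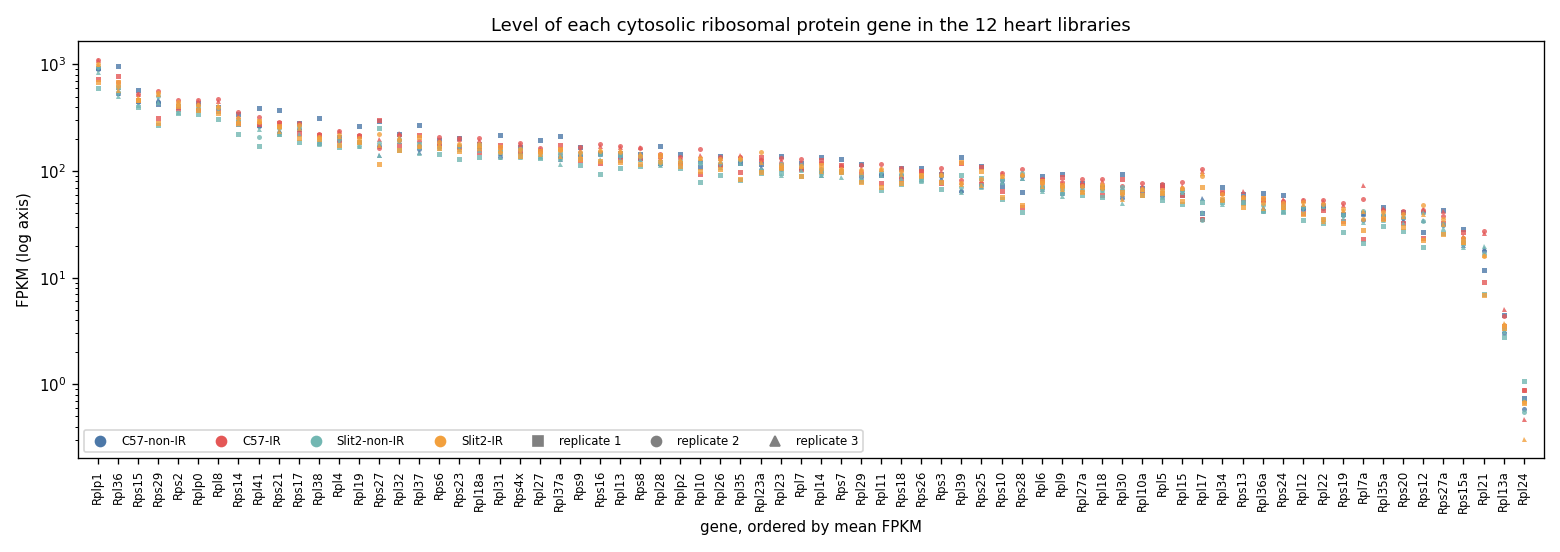
Level of 72 of the 74 genes (x axis, ordered by mean FPKM) in the 12 heart libraries, as FPKM on a log axis. Colours are the groups and marker shapes the replicate numbers. Most genes lie within a few-fold of the median of 111 FPKM, and Rpl24 and Rpl13a lie far below the others.

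A few genes stood far below the rest. Rpl24, a large-subunit protein at the interface of the subunits, was at 0.305 to 1.08 FPKM in every library, from 7 to 23 reads. Rpl13a, a large-subunit protein also known for its role in silencing inflammatory mRNAs, was at 2.76 to 5.14 FPKM. Rpl21 followed at a mean of 16.2 FPKM, Rps15a at 22.9 FPKM and Rps27a, which is made as a fusion with ubiquitin, at 33.4 FPKM. Per kb of principal transcript the lowest were Rpl24 (1.05), Rpl13a (7.37), Rps20 (39.8), Rpl21 (61.3) and Rpl17 (63.1). The value of Rps20 rests on the transcript taken, which is 3706 bases long with 357 coding bases. Its median was 3270 reads per library. In GENCODE vM21, 47% of the exon bases of Rpl24 and 35.4% of those of Rpl13a also belong to another annotated gene. Rpl35 and Rpl23a share more of theirs, 66.2 and 62.3%, and had means of 118 and 116 FPKM. The part of shared bases in the low values was not tested.

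The levels of single genes in the groups were close together. For Rplp0, the C57-non-IR hearts were at 439, 386 and 397 FPKM, the C57-IR hearts at 370, 468 and 452, the Slit2-non-IR hearts at 342, 398 and 372 and the Slit2-IR hearts at 377, 415 and 423. For Rps6, the values were 194, 177 and 173 FPKM in C57-non-IR hearts, 175, 209 and 198 in C57-IR hearts, 143, 168 and 165 in Slit2-non-IR hearts and 165, 187 and 180 in Slit2-IR hearts. For both genes a Slit2-non-IR heart held the lowest value. Without IR, the ranges of the 2 genotypes did not overlap for Rps6 and did for Rplp0. The coefficient of variation over the 12 libraries had a median of 12.9% and ran from 8.3% for Rps2 to 44.2% for Rpl17. After the group means were removed, pairs of members had a median Pearson correlation of 0.558 over the 12 libraries, with 78.7% of 2701 pairs above 0. These pairs share libraries and scaling, so the counts of genes moving in a direction below are not counts of independent events.

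The joint level of the genes was followed as the median over the 74 genes of log2(FPKM + 1) minus each gene's mean over all libraries. In C57-non-IR hearts it was 0.19, -0.04 and -0.03 for replicates 1 to 3, and in C57-IR hearts -0.04, 0.22 and 0.18. In Slit2-non-IR hearts it was -0.28, -0.01 and -0.13, and in Slit2-IR hearts -0.14, 0.07 and 0.04. The library numbered 1 was the lowest of its group in 3 groups and the highest in C57-non-IR hearts, and all 4 groups overlapped with at least another group. The group means were 0.04, 0.12, -0.14 and -0.01 in the same order, and the pooled SD within groups was 0.13.

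**Figure D2:**
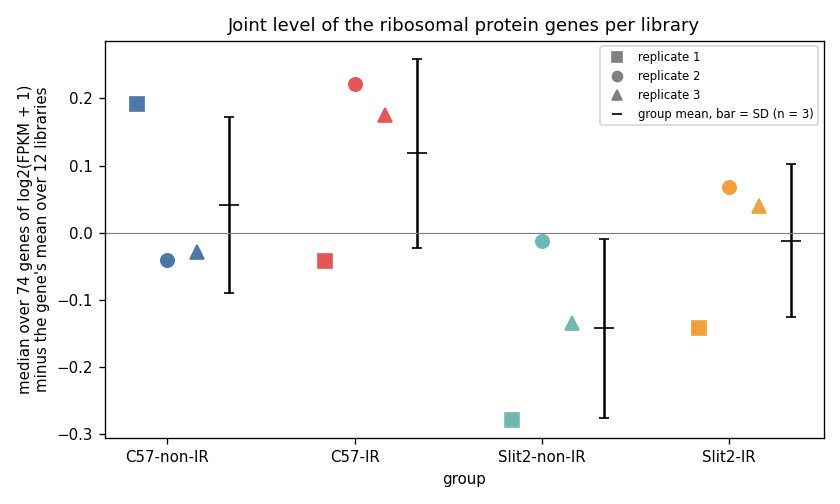
Median over the 74 genes of log2(FPKM + 1) minus the gene's mean over 12 libraries (y axis), for the 3 libraries of each group (x axis); bars show the group mean and SD. The square of C57-non-IR replicate 1 (0.19) lies above its group, and the squares of the other groups (-0.04, -0.28 and -0.14) lie below theirs.

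Hearts of the background strain were compared first, C57-IR vs. C57-non-IR, for the response to IR. No gene passed an adjusted p of 0.05 with limma (0 of 74), where 0.439% of all tested genes did, and 0 genes had an unadjusted p under 0.05 in either direction, where 4.54% of all genes did so upward and 4.42% downward. In this comparison 70 of 74 genes had a positive log2 fold change, against 50.4% of all genes, and 4 had a negative value, against 49.6%. The median was 0.08, and that of all genes was 0.0013. The median standard error of a gene was 0.14, larger than the median change. Only Rpl23a, a large-subunit protein at the exit tunnel, had groups that did not overlap upward (1 of 74, against 6.74% of all genes), and no gene did so downward (0 of 74, against 7.02%). Its values were 117, 101 and 110 FPKM in C57-non-IR hearts and 137, 128 and 131 FPKM in C57-IR hearts, a log2 fold change of 0.27 ± 0.13 (SE). Other scalings turned the sign of the median, and the median of all genes moved down as well. The median was -0.031 with scaling to total reads (-0.067 for all genes). With scaling to the reads on nuclear genes it was -0.0090 (-0.053 for all genes).

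Without the libraries numbered 1 the picture in C57BL/6J hearts differed. All 74 genes then had a positive log2 fold change, with a median of 0.24 (-0.0025 for all genes). Of the 74, 58 (78.4%) had an unadjusted p under 0.05, against 7.58% of all genes upward, and 0 of 74 downward, against 5.21%. None passed the adjusted threshold with limma (0 of 74, against 1.15% of all genes). Rps19, a small-subunit protein, had a log2 fold change of 0.31 ± 0.07 in this fit, from 39.1 and 39.8 FPKM to 50.3 and 48.3 FPKM. Rpl9 had 0.32 ± 0.07, from 62.5 and 62.3 FPKM to 78.6 and 77.2 FPKM, and Rpl21 had 0.53 ± 0.10, from 17.8 and 19 FPKM to 27.5 and 26.4 FPKM. In these 3 genes every remaining C57-IR library was above every remaining C57-non-IR library. The libraries left out, C57-non-IR replicate 1 and C57-IR replicate 1, had 39.6 and 34.3 FPKM for Rps19 and 94.1 and 87.6 FPKM for Rpl9, thus lower after IR. When these 8 libraries were scaled to the reads on nuclear genes, the median was 0.13 (-0.067 for all genes). The count at an unadjusted p under 0.05 was then 9 of 74 (12.2%, against 4.97% of all genes). The choice of these 8 libraries was made after the data were seen. Among them, summed fibroblast markers were 175 and 174 FPKM in C57-non-IR hearts and 192 and 222 FPKM in C57-IR hearts. Summed adipocyte markers (5 genes) were 0.847 and 0.292 against 14.1 and 17.2 FPKM. Cardiomyocyte and atrial markers were also higher in these C57-IR hearts and blood markers lower, while the other marker sums overlapped. The part of these in the result was not tested.

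In Slit2-IR vs. Slit2-non-IR hearts, 70 of 74 genes had a positive log2 fold change, against 51.6% of all genes, and 4 a negative one, against 48.4%, with a median of 0.13. No gene passed the adjusted threshold (0 of 74, against 0.505% of all genes), and Rpl17 and Rpl41 had an unadjusted p under 0.05 upward (2 of 74 or 2.7%, against 6.15% of all genes), and none downward (0 of 74, against 5.05%). The groups did not overlap upward for 8 genes (10.8%, against 8.64% of all genes) and downward for 0 (against 8.31%). The 8 were Rpl13a, Rpl17, Rpl18, Rpl27, Rpl41, Rpl6, Rps15 and Rps26. The log2 fold change was 0.16 ± 0.11 for Rpl6 and 0.14 ± 0.09 for Rps26, and neither had an unadjusted p under 0.05. Without the libraries numbered 1 the median was 0.12, and 10 of 74 genes (13.5%) had an unadjusted p under 0.05 upward, against 6.14% of all genes, and 0 of 74 downward, against 4.77%. With all libraries the median was 0.053 with total reads scaling (-0.045 for all genes) and 0.037 with nuclear reads scaling (-0.055 for all genes).

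Over both genotypes together, IR vs. non-IR hearts had a median log2 fold change of 0.11, with 72 of 74 genes above 0, against 51.2% of all genes, and 2 below 0, against 48.8%. The median was 0.012 with total reads scaling (47 of 74 above 0), 0.015 with nuclear reads scaling (50 of 74 above 0) and 0.18 without the libraries numbered 1. The medians of all genes in these fits were -0.056, -0.054 and -0.00046. A change of scaling moves all genes of a library together, so the total and nuclear reads fits cannot test the members against all genes. No gene passed the adjusted threshold with limma (0 of 74, against 3.48% of all genes). At an unadjusted p under 0.05, 3 of 74 genes (4.05%, against 7.92% of all genes) were higher, namely Rpl17, Rpl23a and Rpl5, and 0 were lower, against 7.96%. Rpl23a had a log2 fold change of 0.27 ± 0.09, with an unadjusted p of 0.0163 and an adjusted p of 0.174 with limma. Its Slit2-non-IR hearts were at 95.4, 103 and 103 FPKM and its Slit2-IR hearts at 97.5, 150 and 121 FPKM, so that these groups overlapped. Without Slit2-IR replicate 1, which had the high atrial markers, its adjusted p was 0.0463. Of its exon bases, 62.3% also belong to another annotated gene. Rpl5, which with Rpl11 and 5S RNA forms the particle that binds Mdm2, had 0.16 ± 0.07 with an adjusted p of 0.314. Its values were 73.5, 58.6 and 63.5 FPKM in C57-non-IR hearts, 70.6, 75.2 and 73.5 in C57-IR hearts, 53.2, 64.3 and 57.2 in Slit2-non-IR hearts and 62.5, 67 and 63.8 in Slit2-IR hearts. Without the libraries numbered 1, 3 genes passed the adjusted threshold upward (Rpl17, Rpl9 and Rps19), against 2.83% of all genes called in either direction, and 60 of 74 had an unadjusted p under 0.05 (81.1%, against 10% of all genes). When these 8 libraries were scaled to nuclear reads, 1 gene passed the adjusted threshold (against 3.24% of all genes) and 8 genes had an unadjusted p under 0.05 upward (10.8%, against 6.11% of all genes).

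**Figure D3:**
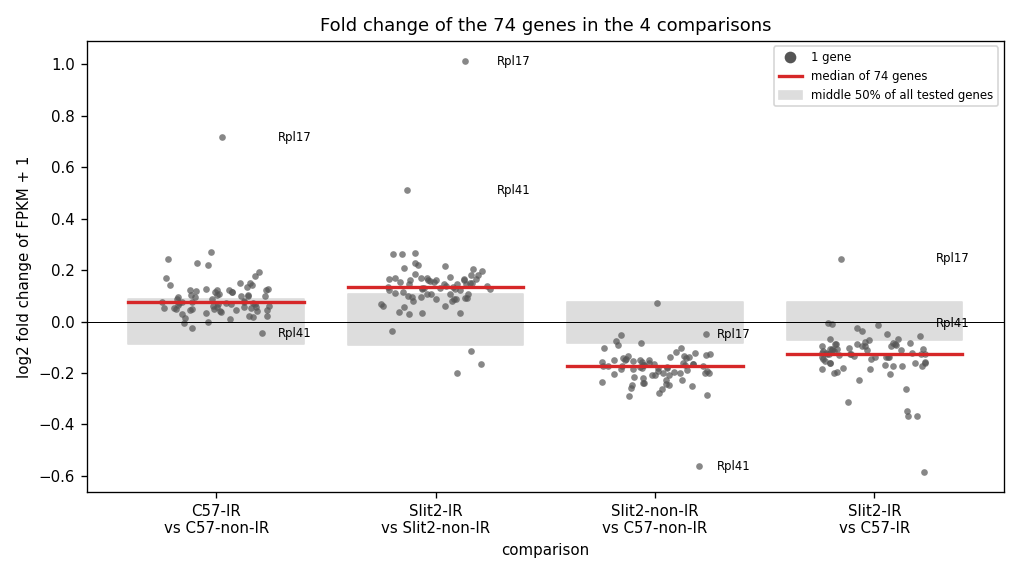
Log2 fold change of FPKM + 1 (y axis) of the 74 genes in the 4 pairwise comparisons (x axis). Points are genes, red lines the medians (0.08, 0.13, -0.17 and -0.12) and grey boxes the middle 50% of all tested genes. Rpl17 and Rpl41 stand apart from the other points.

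Hearts without ischemia were compared next, Slit2-non-IR vs. C57-non-IR, for the difference between the 2 genotypes without IR. The transgene and other differences of its line, which goes back to a C57 by CBA cross, cannot be told apart here. The log2 fold change was below 0 in 73 of 74 genes, against 51.1% of all genes, and above 0 in 1, against 48.9%. The median was -0.17, and that of all genes was -0.0028. No gene passed the adjusted threshold (0 of 74, against 0.0393% of all genes), and Rpl41 alone had an unadjusted p under 0.05 downward (1 of 74 or 1.35%, against 1.76% of all genes), with 0 upward (against 1.42%). The groups did not overlap downward for 6 genes (8.11%, against 4.57% of all genes) and upward for 0 (against 4.61%). The 6 were Rpl18, Rpl41, Rpl8, Rps19, Rps6 and Rps7. Rps6 had a log2 fold change of -0.19 ± 0.10. Rpl24 was the gene above 0, at 0.07. The direction was the same under every scaling, with a median of -0.13 for total reads and -0.17 for nuclear reads (0.022 and -0.0012 for all genes). Its size rested on the libraries numbered 1, among which the C57-non-IR library had the highest and the Slit2-non-IR library the lowest joint level (0.19 and -0.28). Without them the median was -0.028 (-0.0018 for all genes) and 54 of 74 genes were below 0. In that fit 0 genes had an unadjusted p under 0.05, against 2.01% of all genes downward and 1.85% upward. Summed mural cell markers were 187 to 209 FPKM in Slit2-non-IR hearts and 235 to 284 FPKM in C57-non-IR hearts. The mitochondrial share of reads was 22 to 23.3% and 23.9 to 25.3%, respectively, so that these groups did not overlap in either measure. The part of these in the result was not tested.

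In Slit2-IR vs. C57-IR hearts, 73 of 74 genes again had a log2 fold change below 0, against 50.1% of all genes, with a median of -0.12. Rpl17 was the gene above 0, where 49.9% of all genes were. No gene passed the adjusted threshold (0 of 74, against 0.0459% of all genes). Rpl27a had an unadjusted p under 0.05 downward (1 of 74 or 1.35%, against 1.38% of all genes) and 0 genes upward (against 1.78%). When same-numbered hearts were paired in the fit, 3 of 74 did so downward (4.05%, against 2.03% of all genes). Rpl27a, a large-subunit protein, was at 73.8, 84.2 and 78.8 FPKM in C57-IR hearts and 63.6, 73.1 and 65.1 FPKM in Slit2-IR hearts. All 3 Slit2-IR values were below all 3 C57-IR values, with a log2 fold change of -0.23 ± 0.10. Its adjusted p with limma was 0.9996, and over the alternatives it ran from 0.909 to 1. The groups did not overlap downward for 12 genes (16.2%, against 3.43% of all genes), namely Rpl19, Rpl27, Rpl27a, Rpl30, Rpl34, Rpl38, Rpl5, Rpl9, Rps15a, Rps21, Rps26 and Rps7, and for 0 upward (against 3.04%). The lowest log2 fold changes were those of Rpl21 (-0.58), Rpl7a (-0.37), Rps27 (-0.37), Rpl22 (-0.35) and Rpl30 (-0.31).

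This difference remained in direction without the libraries numbered 1, where the median was -0.14 (-0.0029 for all genes) and 71 of 74 genes were below 0. In that fit 7 of 74 genes (9.46%) had an unadjusted p under 0.05 downward, against 2.85% of all genes, and 0 upward, against 2.03%, and 0 of 74 passed the adjusted threshold, against 0.0262% of all genes. Rpl21 had a log2 fold change of -0.70 ± 0.10, from 27.5 and 26.4 FPKM to 16.1 and 16.4 FPKM, with an adjusted p of 0.173. Rpl7a had -0.69 ± 0.18, from 54.3 and 73.5 FPKM to 35.5 and 42.5 FPKM. The libraries left out were at 22.9 FPKM (C57-IR) and 27.8 FPKM (Slit2-IR) for Rpl7a. Rows named as pseudogenes held 28.2% as many reads as Rpl7a and 73.9% as many as Rpl21. Scaled to total reads with all libraries, the median was -0.06 (0.042 for all genes) and 65 of 74 genes were below 0. The share of reads taken by mitochondrial genes was 25.4 to 26% in C57-IR hearts and 19.7 to 23.8% in Slit2-IR hearts, which moves a scaling to total reads. Without the libraries numbered 1, summed leukocyte markers were 318 and 346 FPKM in C57-IR hearts and 237 and 265 FPKM in Slit2-IR hearts. Summed lung markers (4 genes) were 9.16 and 10.8 against 0.108 and 0.173 FPKM. Blood and adipocyte markers were also lower in Slit2-IR hearts, cardiomyocyte markers were higher, and the other marker sums overlapped. The part of these in the result was not tested.

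The interaction of Slit2 and IR had a median log2 difference of 0.06, with 55 of 74 genes above 0, against 51.2% of all genes, and 19 below 0, against 48.8%. No gene passed the adjusted threshold, in the list or among all 15258 tested genes (0%), and 1 of 74 genes had an unadjusted p under 0.05 upward (1.35%, against 1.07% of all genes) and 0 downward (against 0.773%). The call was lost when same-numbered hearts were paired in the fit (0 of 74 upward, against 1.62% of all genes). The sign of the median was decided by single libraries. It ran from -0.055 without C57-non-IR replicate 1 to 0.12 without Slit2-IR replicate 1. Without the libraries numbered 1 it was -0.11 (-0.0017 for all genes), and 67 of 74 genes were below 0.

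The gene behind that single interaction call was Rpl41, whose product is a very short basic peptide of the large subunit. Its values were 394, 265 and 270 FPKM in C57-non-IR hearts, 274, 325 and 287 in C57-IR hearts, 170, 208 and 246 in Slit2-non-IR hearts and 293, 290 and 296 in Slit2-IR hearts. Every Slit2-non-IR heart was below every heart of the other 3 groups. The log2 fold change was -0.56 ± 0.17 in Slit2-non-IR vs. C57-non-IR hearts (unadjusted p of 0.00638) and 0.51 ± 0.17 in Slit2-IR vs. Slit2-non-IR hearts (unadjusted p of 0.0112). The adjusted p-values with limma were 0.9995 and 0.248. The interaction was 0.56 ± 0.24 (unadjusted p of 0.0389 with limma), its unadjusted p was 0.0536 when same-numbered hearts were paired, and it was 0.18 ± 0.15 without the libraries numbered 1. C57-non-IR replicate 1 held the highest value, and across alternatives the first fold change ran from -0.69 to -0.24, the second from 0.29 to 0.64 and the interaction from 0.18 to 0.68. No row is named as a pseudogene of Rpl41.

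Rpl17, a large-subunit protein at the tunnel exit, had the largest log2 fold changes with IR among the 74 genes. It was at 40.6, 35.4 and 56.4 FPKM in C57-non-IR hearts and at 35.2, 105 and 99.2 FPKM in C57-IR hearts. It was at 51.6, 34.4 and 40.9 FPKM in Slit2-non-IR hearts and at 71.1, 90.7 and 95.9 FPKM in Slit2-IR hearts. Of the 6 IR hearts, 5 lay above all non-IR hearts, and C57-IR replicate 1 lay among the non-IR hearts. The log2 fold change was 0.72 ± 0.36 in C57BL/6J hearts, 1.01 ± 0.36 in Slit2-Tg hearts and 0.86 ± 0.25 over both. The adjusted p over both genotypes was 0.0955 with limma, and over the alternatives it ran from 0.00187 (without C57-IR replicate 1) to 0.22.

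A row named as a pseudogene of Rpl17 took the opposite course. The processed pseudogene Rpl17-ps10, on another chromosome, was at 203, 169 and 124 FPKM in C57-non-IR hearts and 182, 103 and 109 FPKM in C57-IR hearts. It was at 127, 154 and 137 FPKM in Slit2-non-IR hearts and 123, 100 and 100 FPKM in Slit2-IR hearts, and so was low where Rpl17 was high. Rpl17 held 21.3 to 58.8% of the normalized reads of the pair. Their sum was 2234 to 2981 normalized reads per library, with a coefficient of variation of 9.65%, against 44.2% for Rpl17 and 25.1% for Rpl17-ps10. By group the sum was 2606 ± 338 in C57-non-IR, 2789 ± 118 in C57-IR, 2279 ± 42 in Slit2-non-IR hearts. In Slit2-IR hearts the sum was 2614 ± 69 (each mean ± SD, n = 3). The C57BL/6J groups overlapped in the sum, and the Slit2-IR hearts were all above the Slit2-non-IR hearts. Reads from near-identical copies can be given to either row, and the sequences of this pair were not compared here. The level of Rpl17 on its own is therefore uncertain, and the pair was summed after these values were seen.

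**Figure D4:**
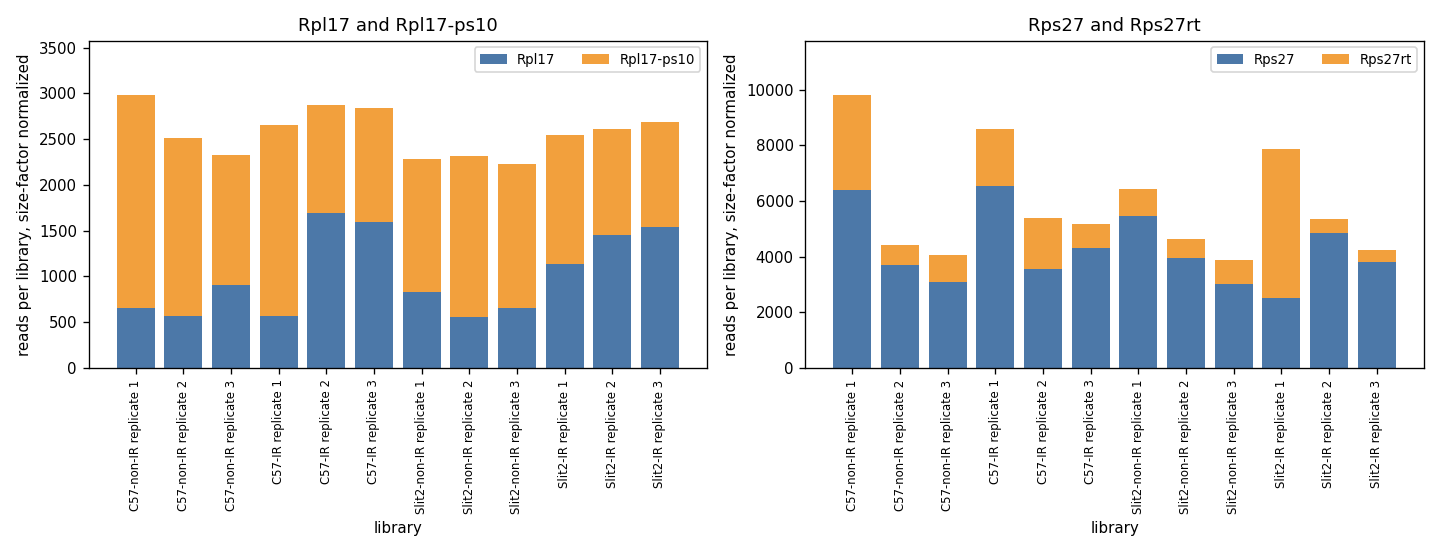
Size-factor normalized reads (y axis) in each of the 12 libraries (x axis) for Rpl17 with Rpl17-ps10 and for Rps27 with Rps27rt, stacked. The Rpl17 share varies between 21.3 and 58.8% while the sum stays between 2234 and 2981, and the Rps27 and Rps27rt sum is highest in the library numbered 1 of every group.

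Rps27, a small-subunit protein with a zinc finger, was set beside the row Rps27rt by name, without a comparison of their sequences. Rps27 ranged from 116 to 303 FPKM and held 32 to 90.8% of the normalized reads of the pair. Their sum was 3870 to 9808 normalized reads and was highest in the library numbered 1 in every group, so here the sum was no steadier than Rps27 alone (coefficients of variation of 33.4 and 30.5%). Rpl21 with Rpl21-ps15 and Rps12 with Rps12-ps3 also kept most of their variation when summed (30.5 and 20.3%). Among the 74 genes, 56 have at least 1 row named as their pseudogene, 262 rows in all, of which 51 had a mean above 1 FPKM. For 11 genes these rows held over 10% as many reads as the gene itself. The highest shares were 160% for Rpl17, 73.9% for Rpl21, 42.9% for Rps12, 34.8% for Rps10 and 28.2% for Rpl7a.

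Several genes differed by library number. In an F test over the replicate number, with the groups in the fit, 7 of 74 genes passed the adjusted threshold with limma (against 2.1% of all genes) and 27 had an unadjusted p under 0.05 (against 18.1%). Among them, Rpl21, Rps28, Rps12 and Rps10 were lower, and Rpl39 and Rps25 higher, in the libraries numbered 1. Rps28, which has no row named as its pseudogene, was at 63.3, 45.8, 41.3 and 47.8 FPKM in these 4 libraries and at 85.4 to 104 FPKM in the other 8. Rpl39, a short protein lining the exit tunnel, went the other way, at 135, 119, 92.7 and 122 FPKM against 63.2 to 82.9 FPKM. Rps25 was at 112, 108, 85.7 and 101 FPKM against 70.5 to 83.8 FPKM. For Rps28, Rpl39 and Rps25 the libraries numbered 1 did not overlap with the other 8.

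In all 4 groups, the library numbered 1 was the lowest for 13 genes (17.6%, against 6.59% of all genes) and the highest for 7 genes (9.46%, against 6.39%). The former included Rpl10, Rpl11, Rpl12, Rpl15, Rpl21, Rpl35, Rps10, Rps12, Rps2, Rps28 and Rps29, and the latter were Rpl14, Rpl36, Rpl37, Rpl37a, Rpl39, Rpl9 and Rps25. Both sets hold genes of either subunit. Across the 74 genes, the difference of the libraries numbered 1 from the others had a Spearman rho of -0.29 with coding length and -0.25 with coding GC content, and of -0.08 with the deposited gene length. These are descriptions over genes measured in the same libraries. The lower leukocyte, fibroblast and mural markers and higher cardiomyocyte markers of the libraries numbered 1 moved with these differences, and their part was not tested.

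**Figure D5:**
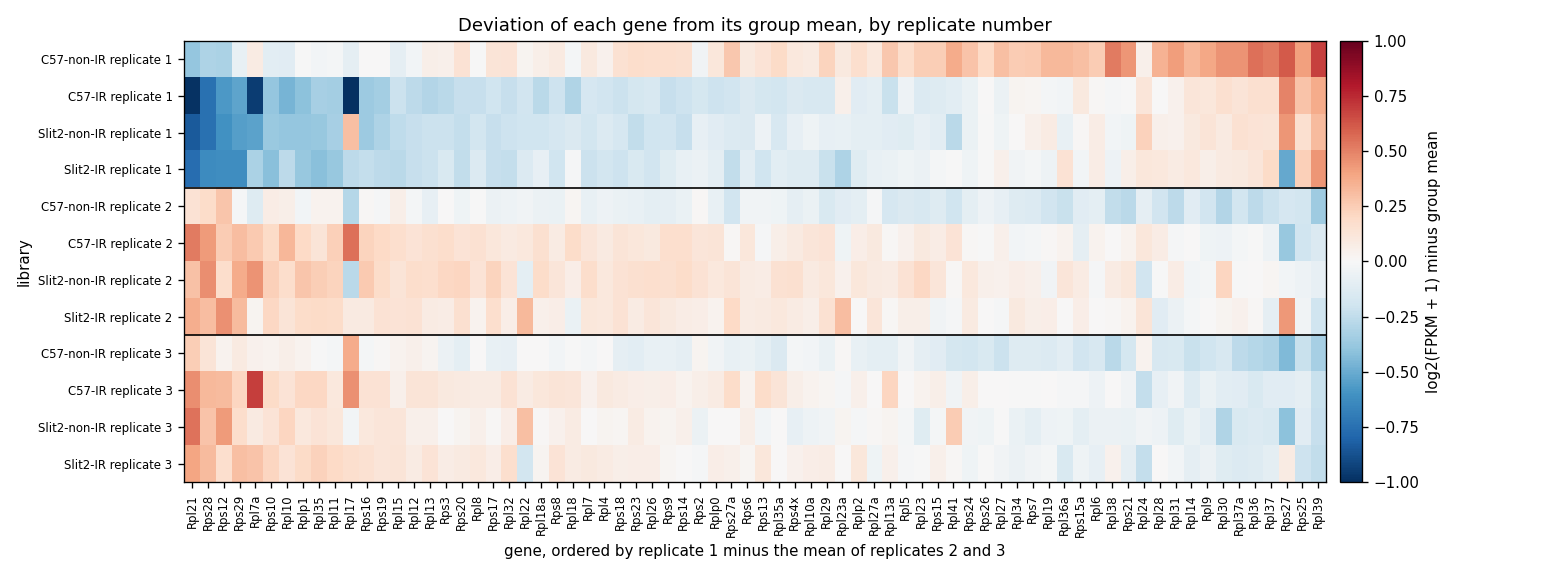
Log2(FPKM + 1) minus the group mean (colour, scale from -1 to 1) for 72 of the 74 genes (columns, ordered by replicate 1 minus the mean of replicates 2 and 3) in the 12 libraries (rows, by replicate number). The genes at the left, such as Rpl21 and Rps28, are low and those at the right, such as Rpl39 and Rps25, high in the 4 libraries numbered 1. A single value, at -1.01, lies beyond the colour scale.

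Genes with further known roles were looked at one by one. The P-stalk genes Rplp0, Rplp1 and Rplp2 had log2 fold changes of 0.07, 0.04 and 0.02 in C57-IR vs. C57-non-IR hearts and -0.14, -0.25 and -0.18 in Slit2-non-IR vs. C57-non-IR hearts, with standard errors of 0.11 to 0.22. Rpl11 had 0.09 ± 0.20 and -0.13 ± 0.20 in the same comparisons. Rpl38, known for its part in the translation of Hox mRNAs, had 0.01 ± 0.17 and -0.23 ± 0.17, and its C57-non-IR replicate 1 (315 FPKM) stood above all other libraries, which were at 180 to 222 FPKM. Rpl10 at the P site, Rpl22 and the X-linked Rps4x had 0.12 ± 0.22, 0.10 ± 0.16 and 0.15 ± 0.11 in C57-IR vs. C57-non-IR hearts. With all 12 libraries none of these had an unadjusted p under 0.05 in any comparison. The C57-IR vs. C57-non-IR values were higher without the libraries numbered 1, with 0.23 ± 0.08 for Rplp0, 0.25 ± 0.09 for Rplp1, 0.25 ± 0.08 for Rpl11, 0.27 ± 0.08 for Rpl38, 0.30 ± 0.08 for Rpl10 and 0.28 ± 0.10 for Rps4x. These 6 then had an unadjusted p under 0.05, while Rplp2 (0.16 ± 0.08) and Rpl22 (0.21 ± 0.19) did not, and the lowest adjusted p of the 8 genes was 0.203 with limma.

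Ribosomal proteins whose symbols fall outside the rule, and paralogs, were looked at next, with 10 of 13 rows tested. None passed the adjusted threshold in any comparison, with or without the libraries numbered 1. The median log2 fold change in C57-IR vs. C57-non-IR hearts was 0.11, and 0.24 without these libraries, where 3 of 10 genes had an unadjusted p under 0.05 (against 7.58% of all genes). Between the genotypes without IR it was -0.18, and -0.094 without them. Rpl3l, the muscle paralog of a core protein, was at 164 to 192 FPKM with log2 fold changes between -0.03 and 0.04 in the 4 pairwise comparisons. Rack1, a scaffold on the small subunit, had a mean of 52 FPKM, Rpsa of 138 FPKM, and Fau, which encodes a fusion with a ubiquitin-like part, of 249 FPKM. Rps3a1, which was added after its values were seen, was at 336 to 444 FPKM. Rpl22l1, the paralog of Rpl22, was at 9.71, 8.04 and 8.42 FPKM in C57-non-IR hearts and 14.2, 13.8 and 11.5 FPKM in C57-IR hearts, without overlap and with a log2 fold change of 0.54 ± 0.23 (adjusted p of 0.494 with limma). In Slit2-non-IR hearts it was at 13.5, 21.8 and 9.28 FPKM, and these overlapped with the C57-IR hearts. The testis paralog Rpl10l was listed at 0 in all libraries, and Rpl39l and Rpl36al were below 0.5 FPKM.

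Other mRNAs known to carry TOP motifs, elongation factors, subunits of Eif3, Pabpc1, Tpt1 and others (22 genes), had a median log2 fold change of 0.08 in C57-IR vs. C57-non-IR hearts (21 of 22 above 0, against 50.4% of all genes) and of 0.08 in Slit2-IR vs. Slit2-non-IR hearts (19 of 22, against 51.6%). With total reads scaling these medians were -0.023 and -0.0033 (-0.067 and -0.045 for all genes). With nuclear reads scaling they were -0.0013 and -0.019 (-0.053 and -0.055 for all genes). The medians without the libraries numbered 1 were 0.20 and 0.073. In C57-IR vs. C57-non-IR hearts 9 of 22 genes (40.9%, against 7.58% of all genes) then had an unadjusted p under 0.05, and Vim, an intermediate filament gene also used as a marker of fibroblasts, passed the adjusted threshold (0.72 ± 0.10, adjusted p of 0.0301 with limma, 1 of 22 genes against 1.15% of all genes). In the Slit2-Tg vs. C57BL/6J comparisons the medians were -0.06 without and -0.04 with IR, and 0.018 and -0.12 without the libraries numbered 1. With all 12 libraries no gene passed the adjusted threshold in any of these comparisons. Hnrnpa1, a splicing factor, had 0.43 ± 0.11 in Slit2-IR vs. Slit2-non-IR hearts, from 49.8, 48.1 and 54 FPKM to 70, 75.3 and 60.9 FPKM, with an adjusted p of 0.121 with limma (0.386 without the libraries numbered 1). Proteins of the mitochondrial ribosome (77 tested) had medians of -0.01 and 0.03 with IR and of -0.10 and -0.05 in Slit2-Tg vs. C57BL/6J hearts, without and with IR. These medians were 0.047, 0.078, -0.053 and -0.015 without the libraries numbered 1 and -0.11, -0.044, -0.061 and 0.016 with total reads scaling. Only the third kept its sign in these fits, and none of the genes passed the adjusted threshold in any of them. With total reads scaling the medians of all genes were -0.067, -0.045, 0.022 and 0.042.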

How the data were processed

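The authors deposited FPKM per gene and library, with gene lengths and GRCm38 coordinates, per the file headers, after median-of-ratios scaling of all libraries. The submitters' processing notes name HISAT2 and mm10, and the counting tool, annotation release and use of strand are not given in the sources used here, so overlapping genes and near-identical copies are uncertain. FPKM times gene length gave whole reads for 100% of values (tolerance 0.01), and these gave the depth, 16601154 to 24841291 reads. There were 0 unused per-library columns. Groups were read from sample titles, with IR from their letters.

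FPKM is not a count, so log2(FPKM + 1) was fitted for 15258 genes, which had the equivalent of 10 reads, at the depth of the median library, in 3 or more libraries and 15 reads in sum, with limma 3.58.1 (trend, 4 groups, R 4.3.3), with Benjamini-Hochberg adjustment over all tested genes. The pseudocount shrinks fold changes of weakly expressed genes. P-values of the main fit measure the spread between the hearts of a group, which also holds differences by library number. The hearts were treated as independent, which the sample titles do not state. The fit was run on simulated counts with large changes and no effect of library number. That run does not cover small changes or the differences by library number seen here. Named members were those with special roles, the 5 highest and 5 lowest, and those with an adjusted or unadjusted p under 0.05 or without overlap between groups; others, such as those of the library-number pattern and the pseudogenes, were picked with their values in view. The members, lists and tests were chosen with earlier results of these data known. Same-numbered libraries were not paired in the main fit, and a replicate block over all 12 libraries was an alternative. All 3 correlations of their deviations from the group means were over 0.1 in Slit2-IR vs. C57-IR hearts (0.154 to 0.362). The same held in Slit2-IR vs. Slit2-non-IR hearts (0.142 to 0.295). In C57-IR vs. C57-non-IR (0.0837 to 0.295) and Slit2-non-IR vs. C57-non-IR (0.038 to 0.324) 1 pair was below 0.1. A pairing would rest on these correlations only. Libraries of a group differed well beyond counting error. Transcript lengths came from GENCODE vM21, where 67 of 74 members had the files' coordinates, and start sequences from RefSeq. Alternatives were a pseudocount of 0.1, other filters (a single read, or 10 reads or more in each library), the 6 libraries compared, the replicate block, TMM, total or nuclear reads scaling, limma-voom on recovered reads and leaving out libraries. Values of a few single genes are not reported here, although these genes enter the counts and medians.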

Additional observations from a re-analysis of the deposited data

How the results depend on the processing

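No member passed the adjusted threshold of 0.05 in any comparison with all libraries. Leaving out each library in turn, the count of members past it ran from 0 to 1 for IR in C57BL/6J hearts, in Slit2-Tg hearts and over both genotypes, and stayed at 0 for the other 3 contrasts. Over all 15258 genes the count ran from 3 to 254, 4 to 178 and 329 to 713 for the former, and reached at most 14 for the latter. Members at an unadjusted p under 0.05 ran from 0 to 19 in C57-IR vs. C57-non-IR (19 without C57-non-IR replicate 1), 1 to 3 in Slit2-IR vs. Slit2-non-IR, 1 to 4 in Slit2-non-IR vs. C57-non-IR, 0 to 7 in Slit2-IR vs. C57-IR, 0 to 1 for the interaction and 2 to 26 for IR over both genotypes (26 without C57-non-IR replicate 1). Over all 15258 genes these counts ran from 925 to 1717, 1209 to 1894, 387 to 580, 315 to 797, 175 to 447 and 1925 to 2801 in the same order. Median log2 fold changes ran from 0.03 to 0.16, 0.06 to 0.20, -0.24 to -0.09, -0.21 to -0.08, -0.055 to 0.12 and 0.08 to 0.15 in the same order. The interaction median turned to -0.039 without C57-IR replicate 1, -0.055 without C57-non-IR replicate 1 and -0.022 without Slit2-non-IR replicate 1.

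In C57-IR vs. C57-non-IR the median turned to -0.031 with total and -0.0090 with nuclear reads scaling (-0.067 and -0.053 for all genes). When only the 6 libraries were fitted, 1 member had an unadjusted p under 0.05 (1256 of all 15258 genes). Without the libraries numbered 1, the counts at an unadjusted p under 0.05 were 58, 10, 0, 7, 3 and 60. Over all 15258 genes they were 1951, 1665, 589, 744, 498 and 2774. For IR over both genotypes 3 members passed the adjusted threshold (432 of all genes). With nuclear scaling as well, the unadjusted counts were 9 in C57BL/6J hearts (2270 of all genes) and 3 in Slit2-IR vs. C57-IR (705). They were 2 for the interaction (477) and 8 over both genotypes (3256), with 1 past the adjusted threshold (494). The medians that moved by more than the SD between replicates or turned were 0.24 in C57-IR vs. C57-non-IR, -0.028 in Slit2-non-IR vs. C57-non-IR (-0.034 with nuclear scaling) and -0.11 for the interaction (-0.089 with nuclear scaling). Those of IR over both genotypes (0.18) and of Slit2-IR vs. Slit2-non-IR (0.042 with nuclear scaling) also moved by over 1.5 times. These 8-library fits were added after seeing the data. With all libraries, the median over both genotypes was 0.012 with total and 0.015 with nuclear reads scaling (-0.056 and -0.054 for all genes). With total reads scaling the unadjusted count was 0 in Slit2-IR vs. C57-IR (555 of all genes) and 1 over both genotypes (2977). With nuclear reads scaling it was 1 over both genotypes (2933). With a replicate block (same-numbered hearts paired) the unadjusted counts were 3 in Slit2-IR vs. C57-IR (689 of all genes), 0 for the interaction (402) and 6 over both genotypes (2817). The block changed no adjusted call of a member. The causes were not tested. TMM, limma-voom, the pseudocount and the filters moved no count by over 1.5 times. The depth limits Rpl24, with at most 23 reads per library.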

Other observations

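Among genes of ribosome biogenesis (62 tested), 2 passed the adjusted threshold with limma over both genotypes (3.23%, against 3.48% of all genes), Myc and Nop58. Myc, a transcription factor known to drive ribosomal gene expression, was at 2.31, 2.57 and 2.49 FPKM in C57-non-IR hearts and 10.9, 35.8 and 13.7 FPKM in C57-IR hearts, with a log2 fold change of 2.43 ± 0.43 and an adjusted p of 0.046 (0.015 to 0.175 over the alternatives). In Slit2-Tg hearts it went from 1.21, 3.77 and 2.79 FPKM to 28.1, 21.1 and 11.3 FPKM, with 2.54 ± 0.43 and an adjusted p of 0.038 (0.00888 to 0.186, the highest without the libraries numbered 1, where its log2 fold change was 1.95). All IR hearts were above all non-IR hearts. Nop58, a core protein of snoRNA particles, had 0.49 ± 0.09 over both genotypes with an adjusted p of 0.0113 (0.00352 to 0.0457), from 1.21 to 1.72 FPKM in non-IR hearts to 1.82 to 2.82 FPKM in IR hearts. At an unadjusted p under 0.05, 9 of 62 genes (14.5%, against 7.92% of all genes) were higher and 0 lower (against 7.96%) over both genotypes. These counts were 2 and 1 with total reads scaling, where 2977 of 15258 genes were called in either direction. They were 3 and 1 with nuclear reads scaling (2933 of all genes in either direction). The medians of all genes were -0.056 and -0.054 under these scalings. Without the libraries numbered 1 the counts were 11 and 0, against 10 and 8.15% of all genes. With all libraries, none passed the adjusted threshold in the Slit2-Tg vs. C57BL/6J comparisons.

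Among 28 genes of the mTOR pathway, none passed the adjusted threshold, with or without the libraries numbered 1, and 1 did, downward, with total or nuclear reads scaling. At an unadjusted p under 0.05, 4 were higher and 5 lower over both genotypes (14.3 and 17.9%, against 7.92 and 7.96% of all genes). Without these libraries 3 were higher and 4 lower (against 10 and 8.15% of all genes). Eif4e, the cap-binding protein, had a log2 fold change of 0.38 ± 0.11 over both genotypes (adjusted p of 0.0808 with limma, 0.0248 to 0.25 over the alternatives, and 0.231 without the libraries numbered 1). Eif4ebp2, which binds and inhibits Eif4e, had -0.24 ± 0.07 (adjusted p of 0.0794, 0.0361 to 0.199). In C57BL/6J hearts Eif4e was at 20.2, 20.7 and 19.1 FPKM without and 27.3, 31.7 and 22.9 FPKM with IR, without overlap.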
